A study of Rattus norvegicus with 4 samples.

Results

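The circular RNAs (circRNAs) of Emilin2, Vcan, Cd44 and Sdcbp were examined in rat sciatic nerve. All circRNAs whose host gene in the deposited files was 1 of these 4 symbols were taken, which gave 16 of the 4942 circRNAs listed. Emilin2 had 3, Vcan 5, Cd44 3 and Sdcbp 5. The 4 hosts were chosen with their junction reads after crush and after sham surgery already known, so their difference between these groups is described here and not tested.

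The nerves came from Sprague-Dawley rats at postnatal week 6, with no transgene or drug named in the labels. Crush nerves were pressed over 3 mm, 2 times for 15 s each with a pause of 3 s, and sham nerves were exposed only. The segment and 1 mm at both of its ends were taken 24 h after surgery, and total RNA was sequenced in 2 libraries per group. Separate animals for the 2 libraries of a group are not stated in the labels, so the spread between them may be technical. The deposited values are counts of reads across each back-splice junction, and the totals were 8250 and 9027 for crush replicates 1 and 2, and 9018 and 8726 for sham replicates 1 and 2.

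A circRNA forms when a splice donor is joined to an acceptor that lies upstream of it in the same transcript, and its reads are recognised by that back-splice. The 4 hosts encode proteins of the matrix, a receptor that binds to it and an adaptor inside the cell. Emilin2 encodes a secreted glycoprotein of the elastin microfibril interface, and Vcan encodes versican, a large chondroitin sulfate proteoglycan that binds hyaluronan. Cd44 encodes a cell surface receptor of hyaluronan, carried by leukocytes and by many other cells. Sdcbp encodes syntenin, a PDZ domain adaptor that binds the cytoplasmic tails of syndecans and takes part in exosome formation. After a nerve crush, leukocytes enter the nerve and its matrix is remodelled.

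Reads of all 4 hosts were higher in both crush libraries than in both sham libraries. Emilin2 had 58 and 67 junction reads in crush nerves, against 6 and 9 in sham nerves. Vcan had 15 and 27 reads in crush nerves and Sdcbp had 15 and 25, and neither was listed with a read in any sham library. Cd44 had 5 and 3 reads in crush nerves and was listed at 0 in both sham nerves. In sum, 93 and 122 reads in the crush libraries came from the 4 hosts (1.13% and 1.35% of all junction reads), against 6 and 9 in the sham libraries (0.0665% and 0.103%).

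Of the 4 hosts, 4 had both crush libraries above both sham libraries, where 11.6% of all 2327 host genes did. Of the 16 circRNAs, 5 did, where 6.48% of all 4942 did. The hosts were picked on these same libraries, so the counts describe the choice and carry no further weight. In bulk nerve, a change in the number of cells of a type cannot be told apart from a change in RNA per cell. Linear transcripts of the hosts were not analysed here, so the share of a host's RNA that was circular is not known.

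**Figure D1:**
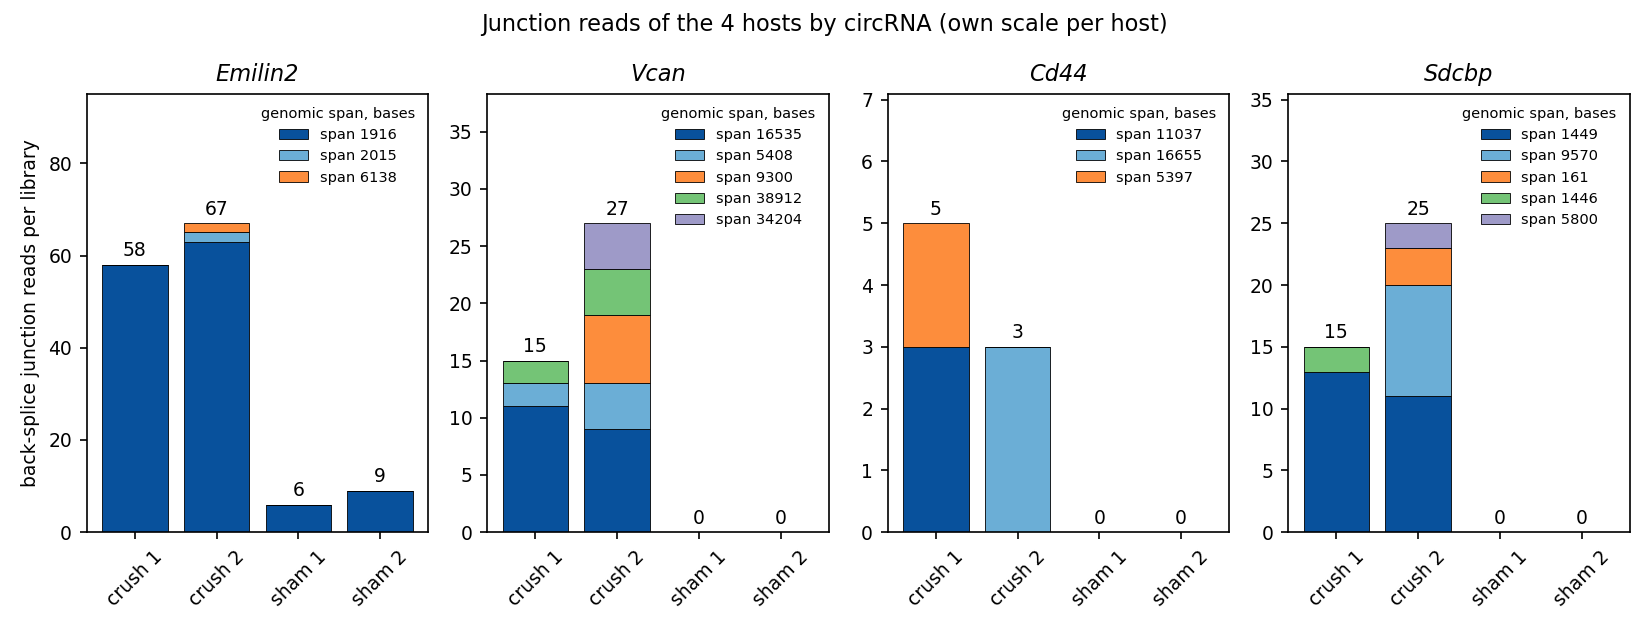
Bars show the back-splice junction reads of each host in each library, on a scale of its own per host, with the parts of a bar standing for its circRNAs, named by genomic span. Emilin2 bars reach 58 and 67 for crush nerves, against 6 and 9 for sham nerves, and the other hosts have bars in the crush libraries only.

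The deposited SRPBM signal, which is the read count times a constant per library, gave the same order. In crush nerves Emilin2 reached 4.11 ± 0.141 SRPBM, Vcan 1.35 ± 0.373, Sdcbp 1.29 ± 0.288 and Cd44 0.271 ± 0.129 (SD, n = 2). A back-splice junction is a single site whatever the length of the transcript, so these host sums are not divided by length. Vcan and Sdcbp differed by less than the spread between crush replicates, while Emilin2 lay above both and Cd44 below both in each crush library. In sham nerves Emilin2 stood at 0.572 ± 0.191 SRPBM (SD, n = 2).

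Emilin2 was 7.17-fold higher in crush than in sham nerves by mean SRPBM. In the edgeR fit over all tested host genes, which scales by TMM, its log2 change was 3.24, and the ratio of means on that scale was 9.55. Emilin2 was chosen on this difference, so no SE or test of it is given. The median log2 change of all tested host genes was 0.11 with TMM and -0.30 with library totals taken from SRPBM. For hosts at 0 in sham nerves a lower bound was set against a floor of 3 reads in each sham library. It was at least 5.94-fold for Vcan, at least 5.68-fold for Sdcbp and at least 1.19-fold for Cd44. These bounds hold only where a listed 0 means few reads, because the smallest count above 0 in the files was 2 and a junction with 1 read would not show. Without crush replicate 1, the 3 reads of Cd44 in crush replicate 2 fell under that floor and gave no fold. The filter of at least 5 reads in at least 2 libraries, used for the fit, was passed by 3 of the 4 hosts, all but Cd44, and by 3 of the 16 circRNAs. Those 3 were the leading circRNAs of Emilin2, Vcan and Sdcbp.

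Emilin2 ranked among the main circRNA hosts of crushed nerve. It was number 9 of 1086 hosts with reads in crush replicate 1 and number 8 of 1181 in crush replicate 2, against number 281 of 1039 and number 152 of 1060 in the sham replicates. Vcan was number 84 and number 36 in the crush replicates, and Sdcbp number 84 and number 41. Cd44 lay far lower, at number 317 and number 552, among the hosts with at most 5 reads, of which the crush libraries held 770 and 848.

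Nearly all Emilin2 reads belonged to a single circRNA. It lay on the minus strand at chr9:119615345-119617261 (Rnor_6.0, ENSRNOG00000014837), was classed as exonic and spanned 1916 bases. It had 58 and 63 reads in crush nerves, against 6 and 9 in sham nerves, and was number 7 of all circRNAs in both crush libraries. In SRPBM that was 4.21 and 3.77 in crush nerves, against 0.437 and 0.708 in sham nerves. Both crush libraries lay above both sham libraries, as for 6.48% of all circRNAs. Nothing is read from this, since the host was chosen on it. Its share of Emilin2 reads was 96.8% in crush nerves (95% exact interval 92.0% to 99.1%, 121 of 125 reads) and 100% in sham nerves (78.2% to 100%, 15 of 15).

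Both other Emilin2 circRNAs had 2 reads in crush replicate 2 and 0 elsewhere. All 3 ended at 119615345, which on the minus strand is the downstream, donor side, and they differed at the upstream, acceptor side. The one spanning 2015 bases, to 119617360, was classed as intronic and its upstream end lay 99 bases beyond that of the leading circRNA. The one spanning 6138 bases, to 119621483, reached 4222 bases beyond it.

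Vcan showed the opposite layout. Its 5 exonic circRNAs, on the minus strand of chromosome 2 (ENSRNOG00000029212), all began at 18531203, the upstream acceptor side, and closed on 5 different downstream ends spread over 33504 bases. The leading one, chr2:18514668-18531203, spanned 16535 bases and had 11 and 9 reads in crush nerves. The shortest, from 18525795, spanned 5408 bases and had 2 and 4 reads. The longest, from 18492291, spanned 38912 bases and also had 2 and 4 reads. These 3 were called in both crush libraries and in no sham library. The circRNA from 18521903, of 9300 bases, had 0 and 6 reads in crush nerves, and that from 18496999, of 34204 bases, had 0 and 4. The circRNAs called in both crush libraries held 32 of the 42 Vcan reads, or 76.2%.

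The leading Vcan circRNA took 73.3% of Vcan reads in crush replicate 1 (95% exact interval 44.9% to 92.2%, 11 of 15) and 33.3% in crush replicate 2 (16.5% to 54.0%, 9 of 27). The share was lower in crush replicate 2 (Fisher's exact test, two-sided, p = 0.0231, and 0.0462 after Benjamini-Hochberg adjustment over the 4 hosts compared in this way). That test sets 1 library against the other and covers counting error only, and the leading circRNA was picked on the same reads. Over 293 filtered circRNAs of the series, the crush libraries also differed beyond counting error (chi-square per degree of freedom 2.31). Junctions with 1 read are not listed, so host totals may miss reads and the shares may be too high. Neither the test nor the intervals cover this, here or for the other hosts. In both libraries the upstream end was the same for every Vcan read.

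Sdcbp lay on the plus strand of chromosome 5 (ENSRNOG00000009683), and 4 of its 5 exonic circRNAs closed at 19492384, the downstream donor side. The leading one, chr5:19490935-19492384, spanned 1449 bases and had 13 and 11 reads in crush nerves. It was the only Sdcbp circRNA called in both crush libraries, with 24 of 40 reads (60.0%, 95% exact interval 43.3% to 75.1%). A neighbour that began 3 bases downstream, at 19490938, had 2 and 0 reads. Longer circRNAs to the same end began at 19482814, with 0 and 9 reads over 9570 bases, and at 19486584, with 0 and 2 reads over 5800 bases. The fifth ran from the acceptor of the leading circRNA to 19491096, spanned 161 bases and had 0 and 3 reads.

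The Sdcbp circRNA of 9570 bases had the widest gap between crush replicates among the 16, with 0 reads in crush replicate 1 and 9 in crush replicate 2. Among all 166 circRNAs with at least 9 reads in crush replicate 2, 10 were listed at 0 in crush replicate 1. The leading circRNA took 86.7% of Sdcbp reads in crush replicate 1 (95% exact interval 59.5% to 98.3%) and 44.0% in crush replicate 2 (24.4% to 65.1%), a difference with p = 0.00951 by the same exact test (0.0380 adjusted). For Emilin2 and Cd44 the adjusted exact p was 0.164 and 0.196. The span of 161 bases was among the smallest of the series, since 2 of 3731 exonic circRNAs spanned 161 bases or fewer.

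Cd44 had 3 exonic circRNAs on the minus strand of chromosome 3 (ENSRNOG00000006094), and no end was shared between them. The most upstream, chr3:92732465-92749120, spanned 16655 bases and had 0 and 3 reads in crush nerves. The middle one, chr3:92721553-92732590, spanned 11037 bases and had 3 and 0 reads. The most downstream, chr3:92717828-92723225, spanned 5397 bases and had 2 and 0 reads. They followed each other along the gene with short overlaps, of 125 bases between the upper pair and 1672 bases between the lower pair. None was called in both crush libraries, so the 2 crush libraries agree on reads from Cd44 and not on which circRNA carried them.

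**Figure D2:**
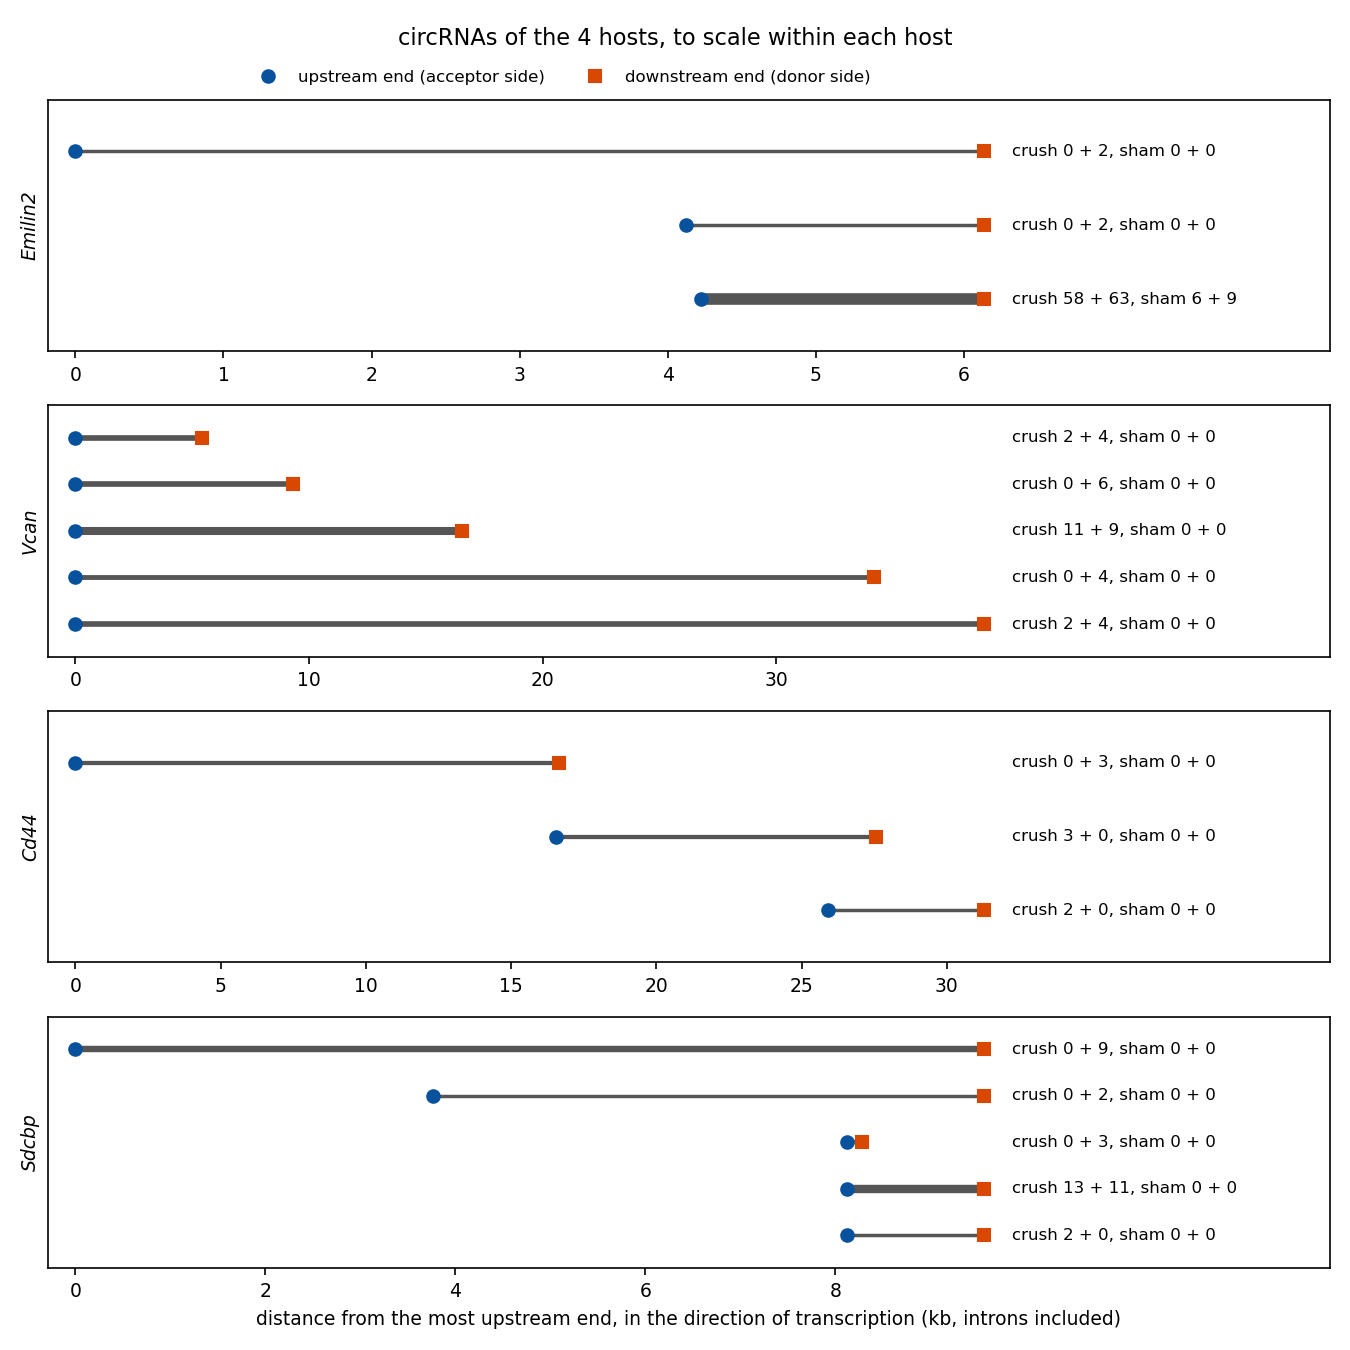
Lines show the circRNAs of each host to scale, from the upstream end (circle) to the downstream end (square), against distance in kb along the direction of transcription, introns included. Thicker lines have more crush reads, and the counts at the right give both crush and both sham libraries. Emilin2 circRNAs share their downstream end, Vcan circRNAs share their upstream end, 4 of 5 Sdcbp circRNAs share a downstream end and Cd44 circRNAs share none.

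Sharing an end was common in the series. Of the 16 circRNAs, 13 shared an end with another of the same host, and of 2760 circRNAs from hosts with at least 2, 1774 did (64.3%). Having every circRNA on the same end was less common, and applied to 46 of 409 hosts with at least 3 circRNAs (11.2%). Emilin2 and Vcan were among these 46. Among the 51 hosts with exactly 5 circRNAs, 3 had all 5 on a common end, Vcan included, and 12 had at least 4 there, Vcan and Sdcbp included. Among the 179 hosts with exactly 3, 37 had all on a common end, as Emilin2 did, and 45 had no shared end, as Cd44 did. Among hosts with at least 4 circRNAs, 8 had a single acceptor for all of them, Vcan included.

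The Sdcbp pair with acceptors 3 bases apart was also of a kind seen elsewhere. Of 641 pairs of circRNAs of a host that shared the donor side and differed at the acceptor, 13 had acceptors at most 10 bases apart, and 8 pairs, from 8 hosts, had acceptors exactly 3 bases apart. Spans of the 16 circRNAs ran from 161 to 38912 bases with a median of 5969, and exonic circRNAs of the whole series had a median of 8809 bases and quartiles of 3371 and 19279. No circRNA of another host or of the intergenic class overlapped the regions covered by the 4 hosts.

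**Figure D3:**
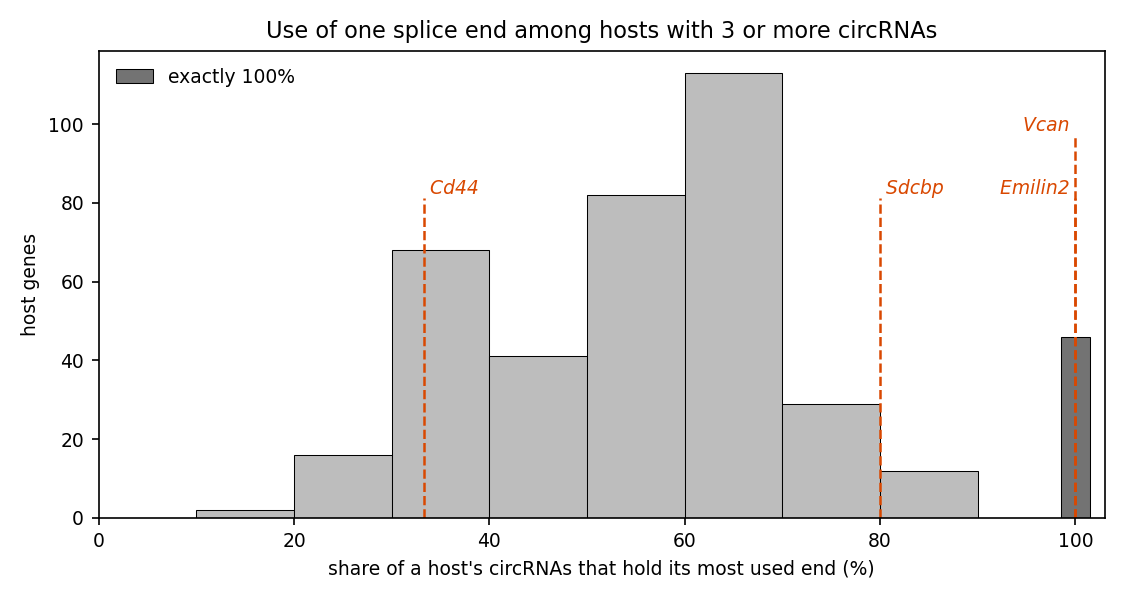
Bars count the 409 hosts with at least 3 circRNAs by the share of their circRNAs that hold the host's most used splice end, in percent, in steps of 10 with hosts at exactly 100% as a bar of their own. Dashed lines mark Cd44 at 33.3%, Sdcbp at 80%, and Emilin2 and Vcan at 100%.

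The concentration of reads on a leading circRNA differed between the hosts. Over both crush libraries it was 96.8% for Emilin2, 60.0% for Sdcbp and 47.6% for Vcan. Among the 125 hosts with at least 20 crush reads and more than 1 circRNA, the median share over both crush libraries was 61.8% and the quartiles 51.9% and 81.0%. No such values were computed per library, so shares of single libraries are set here against shares over both. Emilin2 lay above the upper quartile in each crush library. The places of Vcan and Sdcbp rested on the library, with 73.3% and 86.7% in crush replicate 1, above the median, and 33.3% and 44.0% in crush replicate 2, below the lower quartile.

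Most of the minor circRNAs had 2 or 3 reads, a level at which crush libraries seldom repeated each other. Of the 1172 circRNAs with 2 or 3 reads in crush replicate 1, 22.4% were called in crush replicate 2, and of 1350 such circRNAs in crush replicate 2, 18.1% were called in crush replicate 1. With 10 or more reads these shares were 94.2% and 94.4%. Of the 5 Vcan, Cd44 and Sdcbp circRNAs with 2 or 3 reads in crush replicate 1, 2 were called in crush replicate 2, both of Vcan. In crush replicate 2, 5 circRNAs of Emilin2, Cd44 and Sdcbp had 2 or 3 reads, and all 5 were at 0 in crush replicate 1. Across the series 681 of 3126 circRNAs called in any crush library were called in both (21.8%), against 5 of 16 here. Of the 16, only the leading Emilin2 circRNA was called in a sham library. Across the series, 1704 and 1711 of 4942 circRNAs were called in sham replicates 1 and 2. The hosts were picked on these libraries, so the low sham count describes the choice.

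Promoter sequence is shown for Emilin2 and Vcan, whose junction reads were both higher in crush nerves, because the first annotated start of these genes is at the edge of the gene with no annotated transcript of the gene before it. Each is the 250 bases before that start, from RefSeq on GRCr8, minus strand, 5′ to 3′, at chr9:118667088-118667337 for Emilin2 and chr2:22595956-22596205 for Vcan. Capitals mark matches to any motif searched.
Emilin2: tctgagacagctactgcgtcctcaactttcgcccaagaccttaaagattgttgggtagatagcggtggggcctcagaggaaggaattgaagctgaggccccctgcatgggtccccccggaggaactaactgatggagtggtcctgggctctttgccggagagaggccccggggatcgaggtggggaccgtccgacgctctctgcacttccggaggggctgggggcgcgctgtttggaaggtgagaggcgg
Vcan: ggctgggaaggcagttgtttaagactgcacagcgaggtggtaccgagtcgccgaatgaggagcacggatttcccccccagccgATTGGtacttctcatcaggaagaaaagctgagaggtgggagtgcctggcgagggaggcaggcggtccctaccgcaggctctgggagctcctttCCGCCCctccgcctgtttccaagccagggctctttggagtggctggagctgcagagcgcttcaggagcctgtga
The motifs, searched on both strands, were AP-1 (TGANTCA), CRE (TGACGTCA), the GC box (GGGCGG), the TATA box (TATAAA) and the CCAAT box (CCAAT). The Vcan window held 1 CCAAT box, which 34.0% of 33469 promoter windows of the same length held, and 1 GC box, which 30.5% held, both read on the opposite strand. The Emilin2 window held none of the 5. AP-1 was present in 6.34% of all windows, CRE in 1.59% and the TATA box in 12.9%. The annotation table held no entry for Sdcbp, and the Cd44 entry starts inside the annotated gene and is not printed.

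Among host genes with at least 5 reads in at least 2 libraries, those most like each of the 4 are given as a description. Likeness is the Euclidean distance of log2 CPM with TMM scaling over the 4 libraries. Cd44 did not pass this filter itself, and hosts with fewer reads were not searched, so closer ones may exist. Nearest to Vcan was Sdcbp, at a distance of 0.10, followed by Zfp629 (10 and 22 reads in crush nerves, 0 and 0 in sham nerves, distance 0.58) and Mgam (23 and 21 against 0 and 0, distance 0.65). The same 2 genes followed for Sdcbp, at 0.54 and 0.61. Zfp629 is a zinc finger gene and Mgam encodes maltase-glucoamylase, and both had a single circRNA. Nearest to Emilin2 were Cdyl, a chromodomain gene, with 35 and 49 reads against 9 and 10 (distance 0.95), Rasa2, which encodes a Ras GTPase-activating protein, with 51 and 58 against 17 and 11 (distance 1.28), and Gpatch2 with 25 and 41 against 7 and 9 (distance 1.36). Nearest to Cd44 were Uggt1, a glucosyltransferase of protein folding control, with 5 and 5 reads against 0 and 0 (distance 0.49), and Adgre5 and Sirpa with 6 and 5 against 0 and 0 each (distance 0.53). Adgre5 encodes the leukocyte adhesion receptor CD97, and Sirpa encodes a myeloid receptor of CD47.

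Other matrix and receptor genes gave few circRNA reads, and none of those tested passed. Of 186 genes in 5 lists around the 4 hosts, 33 had a listed circRNA, and their summed level was 3.04 ± 0.0968 SRPBM in crush nerves and 5.45 ± 0.0808 SRPBM in sham nerves (SD, n = 2). That is 41 and 52 reads in crush nerves, against 74 and 70 in sham nerves, and the order of the groups was the same on the TMM scale. The exact two-sided permutation p was 0.333, the smallest that 2 against 2 can give, so this test could not decide on a difference. In reads, the protease, elastic fibre and syndecan lists each overlapped or tied between groups. They had 21 and 13 reads in crush nerves against 21 and 19 in sham nerves, 2 and 2 against 2 and 5, and 2 and 15 against 15 and 15. In SRPBM only the protease list overlapped. The elastic fibre list had 0.145 and 0.120 SRPBM in crush nerves against 0.146 and 0.393 in sham nerves. The syndecan list had 0.145 and 0.897 against 1.09 and 1.18. The hyaluronan list and that of other matrix genes and receptors were lower in both crush libraries than in both sham libraries on both scales. The hyaluronan list had 4 and 2 reads against 8 and 8, and that of other matrix genes and receptors 12 and 20 against 28 and 23. Of the 33, 5 were tested, and 0 passed in either direction (edgeR quasi-likelihood test), where 2.3% of all 434 tested host genes passed, 1.84% as higher and 0.461% as lower. None of the 5 had an unadjusted p under 0.05 in this fit, and DESeq2 also called 0. With library totals taken from SRPBM, 1 of the 5 had an unadjusted p under 0.05 in edgeR and 0 passed after adjustment. Of the 5, 1 was higher and 4 were lower in crush nerves, with a median log2 change of -1.27, against 0.11 over all tested host genes. Leaving out crush replicate 1 gave a median of -0.34, leaving out sham replicate 1 gave -0.91, and leaving out crush replicate 2 gave -1.74.

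In the hyaluronan list, 2 of 33 genes had circRNAs. Nf2, which encodes merlin, a partner of the Cd44 tail, had 4 and 0 reads in crush nerves and 6 and 6 in sham nerves (log2 change -1.30 ± 1.29, adjusted p = 0.574, edgeR). Cemip2, described in mouse as encoding a cell surface hyaluronidase, had 0 and 2 against 2 and 2. The hyaluronan synthases, the link proteins and the other hyaluronan-binding proteoglycans Acan, Bcan and Ncan had no listed circRNA.

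Among matrix proteases, 8 of 31 genes had circRNAs. Adam9, a membrane metalloprotease gene, had 14 and 5 reads in crush nerves and 3 and 7 in sham nerves (log2 change 1.13 ± 0.86, adjusted p = 0.446, edgeR). Adamts17, of a family of secreted metalloproteases, had 2 and 8 against 14 and 3, and Adam10, a sheddase of Cd44, had 3 and 0 against 4 and 0. In these 3 genes the groups overlapped. Of the elastic fibre and EMILIN list, 1 of 25 genes had circRNAs, the latent TGF-beta binding protein gene Ltbp1, with 2 and 2 against 2 and 5, and neither Emilin1 nor Emilin3 had any.

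In the syndecan, syntenin and exosome list, 5 of 39 genes had circRNAs. Gpc3, a glypican gene, had 0 and 6 reads in crush nerves and 11 and 6 in sham nerves (log2 change -1.27 ± 1.18, adjusted p = 0.547, edgeR). Glce, which epimerises heparan sulfate, had 0 and 5 against 4 and 4, and Ext2, a heparan sulfate polymerase gene, had 0 and 2 against 0 and 5. The syndecan genes themselves had none, while Pdcd6ip, which encodes the syntenin partner ALIX, had 0 and 2 against 0 and 0.

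Of the list of other matrix genes and receptors, 17 of 58 had circRNAs. Lama2, the laminin alpha 2 chain of the Schwann cell basal lamina, had 0 and 2 reads in crush nerves and 7 and 8 in sham nerves (log2 change -2.58 ± 1.21, adjusted p = 0.237, edgeR). Itga1, a collagen receptor subunit, had 2 and 4 against 0 and 5, and Dcn, the small proteoglycan decorin, had 0 and 7 against 0 and 0. Fibronectin, Fn1, had 0 and 0 against 0 and 3, and tenascin C, Tnc, had no listed circRNA.

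Junction reads of leukocyte marker hosts were higher in the same libraries as the 4 hosts. Of 29 leukocyte markers 13 had circRNAs, with 82 and 65 reads in crush nerves and 0 and 2 in sham nerves, or 3.89 to 5.95 SRPBM against 0 to 0.157. For this sum too the exact two-sided permutation p was 0.333, the smallest possible here, so the test could not decide on a difference. Csf3r, the receptor of granulocyte colony-stimulating factor, had 28 and 16 against 0 and 0. The immune receptor kinase gene Syk had 13 and 12, and the exchange factor gene Dock8 had 8 and 12, each against 0 and 0. Itgam, the integrin alpha M chain of myeloid cells, had 6 and 5 against 0 and 0. Mrc1 went the other way, with 0 and 0 reads in crush nerves and 0 and 2 in sham nerves, and held all sham reads of the list. Ptprc, the pan-leukocyte gene of CD45, had 2 and 0 against 0 and 0, and the markers Itgb2, Cd68, Aif1, Lyz2, S100a8, S100a9, Adgre1, Csf1r, Cd14, Cd163, Cxcr2, Coro1a, Fcgr2b, Lcp2, Cd3e and Cd79a were at 0 everywhere. The part of leukocytes in the reads of Emilin2, Vcan, Cd44 and Sdcbp was not tested.

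Marker lists of other cells had few circRNAs. Of 22 skeletal muscle markers 4 had reads, 0 and 2 in crush nerves and 5 and 13 in sham nerves. Endothelial and pericyte markers, 4 of 15, had 8 and 8 against 7 and 11, and fibroblast and perineurial markers, 1 of 14, had 0 and 7 against 0 and 0, all from Dcn. Of 17 Schwann cell markers, the tissue's defining cell, only Mbp and Pmp22 had reads, with 3 each in sham replicate 2, and Sox10 was at 0, so these circRNA files hold little with which to check the tissue label. Adipocyte markers had 2 reads in all, in sham replicate 1.

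**Figure D4:**
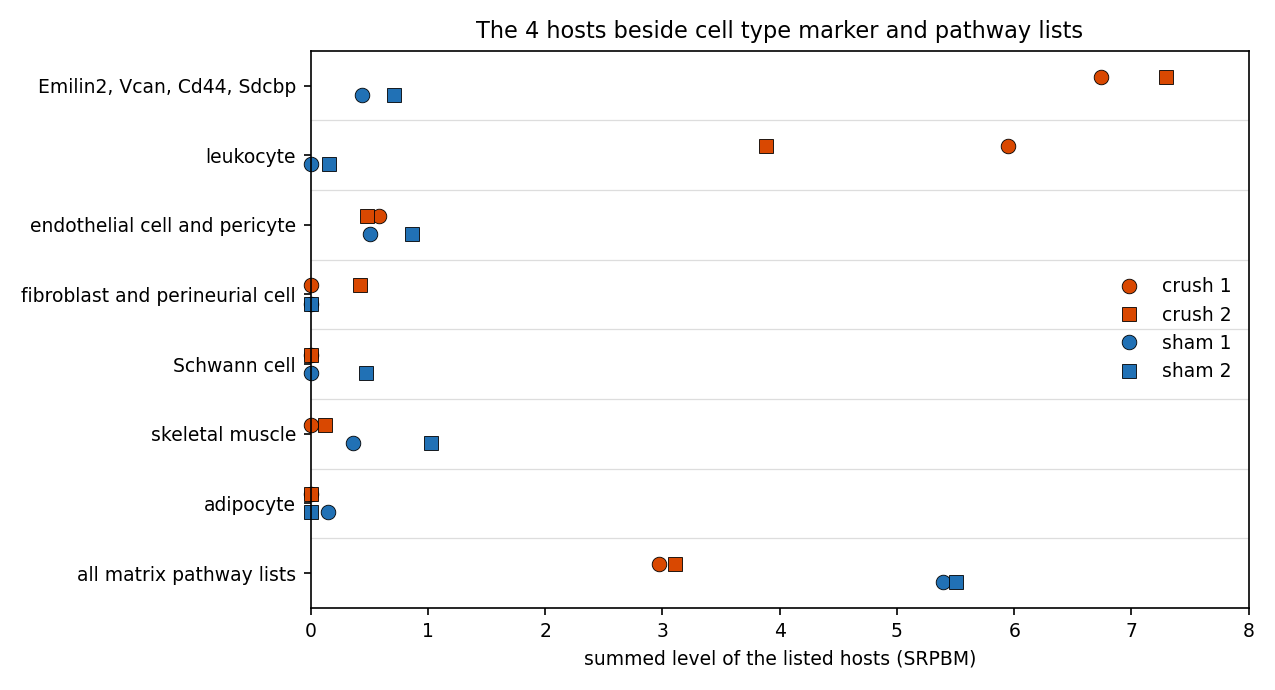
Points show the summed SRPBM of the listed hosts in each library, for Emilin2, Vcan, Cd44 and Sdcbp, for 6 cell type marker lists and for all matrix pathway lists, with crush points above sham points in each row. The 4 hosts sit at 6.74 and 7.30 in crush nerves against 0.437 and 0.708 in sham nerves, leukocyte markers at 5.95 and 3.89 against 0 and 0.157, and the matrix pathway lists at 2.97 and 3.11 against 5.39 and 5.51.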

How the data were processed

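Each deposited file holds 1 library, with back-splice junction read counts and, per the file headers, SRPBM. In the deposited values this signal was the count times 1 constant per library. Rnor_6.0 (build), BWA, CASAVA 1.8 and edgeR are listed in the submitters' processing notes without their steps. The program that made the circRNA calls was not given in the sources used here. The base convention of the coordinates was not stated, and they are printed as deposited. Span is end minus start.

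Reads were summed per host gene, leaving out 3 circRNAs with 2 hosts, and older symbols were updated through RefSeq (GRCr8). edgeR 4.0.16's quasi-likelihood test in R 4.3.3, with TMM, was fitted to hosts and circRNAs with at least 5 reads in at least 2 libraries, two-sided, with Benjamini-Hochberg adjustment at 0.05. Likeness used log2 CPM with a prior count of 2, and only hosts past that filter were searched. The members and lists were chosen with earlier results of these data known. Named genes are the hosts, their circRNAs, the 3 nearest hosts of each, and per pathway list any gene past the test and the 3 with most reads. Cell type markers and a few other list genes were named after their values were seen. Shares have exact Clopper-Pearson intervals, and intervals and floors cover counting error only. Reads of junctions too low to be listed are outside the shares and their intervals. The alternatives were DESeq2 1.42.0, RLE or SRPBM scaling, other filters, a replicate block and leaving out each library.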

Additional observations from a re-analysis of the deposited data

How the results depend on the processing

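At 51 circRNAs and 10 host genes past the threshold, the background counts depended on the processing. DESeq2 called 30 circRNAs and 32 hosts, a filter of at least 10 reads in 2 libraries 23 and 44, and no filter 39 hosts. Leaving out a library gave 0 to 59 circRNAs (0 without crush replicate 1, 20 without crush replicate 2, 26 without sham replicate 1) and 6 to 60 hosts (6 without crush replicate 2, 38 without sham replicate 1, 60 without sham replicate 2). Features of the 4-library filter were kept in these fits, and the lone library was assumed to vary like the other group. With a replicate block 0 circRNAs and 24 hosts passed. Same-numbered libraries deviated with a correlation of -0.11 over circRNAs, so the crossed replicate block was added after seeing the data, and 0 circRNAs passed. SRPBM totals changed the share of calls that were higher from 62.7% to 52.5% for circRNAs and from 80% to 57.1% for hosts. DESeq2 had 76.7% of its circRNA calls higher and no filter 73.1%. The matrix list count was 0 under every alternative run, and the filter of 10 reads left no list gene to test.

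The ratios and bounds of the 4 hosts kept their direction wherever a fold could be given. The hosts were picked on these same libraries, so this carries no further weight. Cd44 gave no fold without crush replicate 1, and its range leaves that setting out. On the TMM scale the bounds of Vcan and Sdcbp were 8.02 and 7.65. Leaving out a library gave 5.80 to 9.39 for Emilin2, 4.79 to 7.10 for Vcan, 4.79 to 6.58 for Sdcbp and 1.15 to 1.60 for Cd44. The causes of these shifts were not tested.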
